A study of Mus musculus with 6 samples.

Results

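The SWI/SNF ATPases and core subunits were followed in RNA of whole mouse eyeballs at postnatal day 1, after deletion of one of the ATPases in the tissue that forms the lens. The group holds 8 genes, Smarca4, Smarca2, Smarcb1, Smarcc1, Smarce1, Smarcd1, Smarcd2 and Smarcd3, of 12393 genes that the array annotation names singly. They were taken as every probe set whose annotation gives exactly 1 symbol and that symbol is one of the 8, which yielded 16 of 22626 tested probe sets. No probe set that names several genes held any of them.

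SWI/SNF complexes use the energy of ATP to move or evict nucleosomes and thereby open or close DNA to transcription factors. Each complex carries a single ATPase, either Brg1 (Smarca4) or Brm (Smarca2). In most forms, though not in all, the core includes Smarcb1, Smarcc1 and Smarce1. A single member of the Smarcd family is also present, and its paralogs replace one another. In developing neural tissue and muscle, exchange of such alternative subunits accompanies the passage from dividing to differentiated cells.

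Brg1 cKO mutants carried homozygous floxed Brg1 alleles together with 1 copy of the Le-Cre transgene. Le-Cre acts in head surface ectoderm and therefore in lens, cornea and eyelid epidermis but not in retina, muscle or vessels. The study reports incomplete deletion of Brg1 in many embryos and, by PCR, occasional deletion in the germline. Controls are labelled wild type. The study states that Brg1 flox/flox mice served as its controls without naming these arrays, so that both groups may share the floxed alleles, and no Le-Cre control was analysed here. RNA of 3 individual Brg1 cKO eyeballs and of 3 from wild-type littermates, on a mixed strain background, was hybridised to 1 Affymetrix array each, and whether each eyeball came from a different pup is not stated, so that p-values measure the spread between eyeballs. Values below are log2 of the deposited intensity, differences are Brg1 cKO minus wild type, and p-values come from limma with Benjamini-Hochberg adjustment over all tested probe sets.

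Median intensity lay between 169.1 and 185.5 in the 6 arrays. The lens crystallin Cryaa averaged 13.97 in wild-type eyes and 12.70 in mutant eyes (limma adjusted p = 0.221). The photoreceptor gene Rcvrn lay between 5.78 and 6.24 in wild-type eyes and between 5.77 and 7.31 in mutant eyes. Krt12, the keratin of corneal epithelium, averaged 9.40 in wild-type eyes and 5.70 in mutant eyes (limma adjusted p = 0.00194). Brg1 cKO replicate 2 stood apart. It was the lowest of the 6 arrays for 28% of all probe sets, and the median of 15 measured (16 listed) macrophage and leukocyte genes lay 1.88 above the wild-type mean there, against 0.97 and 1.02 in Brg1 cKO replicates 1 and 3.

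No ATPase or core subunit passed the test for a difference between the genotypes. Of the 16 probe sets, 0 passed an adjusted p of 0.05, as 0.508% of all tested probe sets did, and 0 had an unadjusted limma p under 0.05, as 8.4% of all probe sets did. Template matching, the study's selection rule, with an unadjusted p under 0.05 and a fold over 1.5, selected 0 of them and 3.62% of all when run here. The study itself reports a larger count by this rule, which was not reproduced. Differences of the 16 probe sets ran from -0.70 to 0.20, with 9 negative and 7 positive, and their median was -0.05 beside -0.01 over all probe sets. The smallest adjusted p in the group was 0.598. The precision still allowed moderate changes. Among the 15 probe sets above the 25th percentile of all values (4.84) in all 6 arrays, the 95% confidence interval of the difference lay inside -1 to 1 for 14, which leaves out a doubling or a halving of the signal, and the exception was the dimmer Smarca4 probe set. The 1 dim probe set, of Smarcd1, sets no such limit. Because whole eyeballs were measured, a change confined to lens or surface ectoderm is diluted by the other tissues, and fewer cells of a type and less RNA per cell cannot be told apart.

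**Figure D1:**
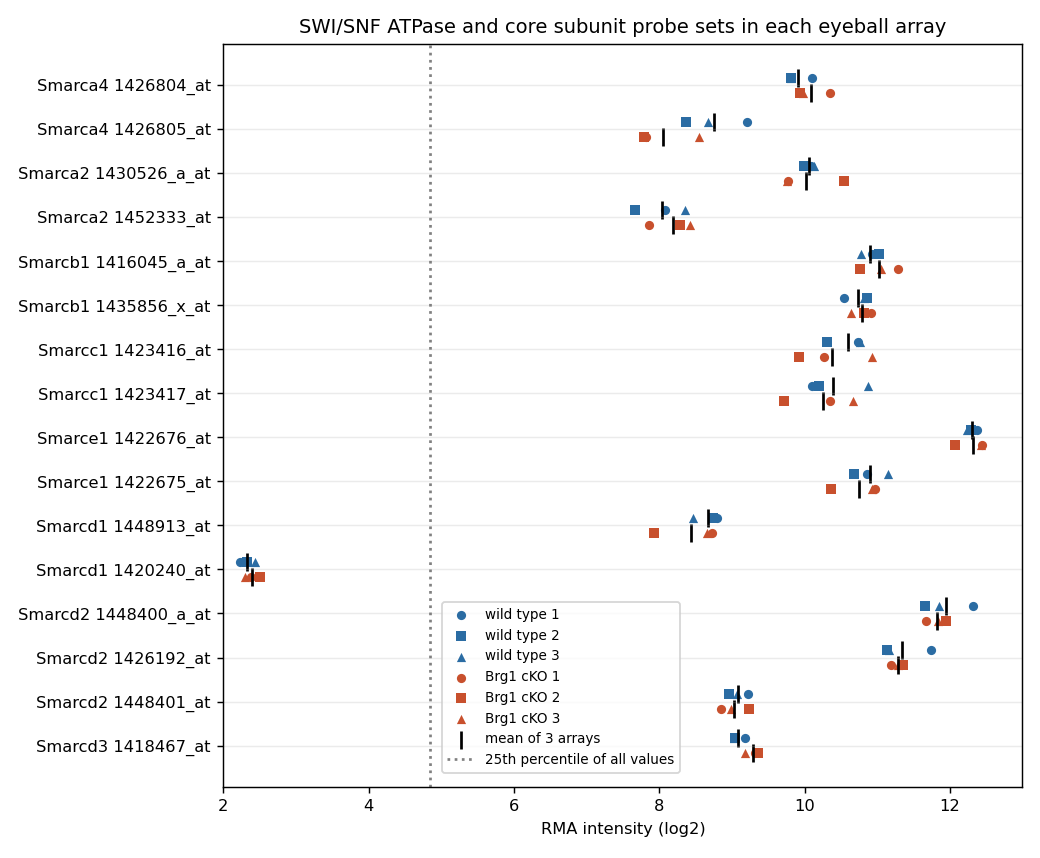
RMA intensity (log2, horizontal axis) of the 16 probe sets of SWI/SNF ATPases and core subunits, with blue wild-type and orange Brg1 cKO arrays as points whose shapes give the replicate number, black ticks for the mean of 3 arrays and a dotted line at the 25th percentile of all values (4.84). Groups overlap in every row but that of Smarcd3, and 1420240_at of Smarcd1 lies alone below the dotted line.

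Smarca4 encodes Brg1, the deleted ATPase, and its probe sets gave different pictures. The brighter probe set, 1426804_at, gave 10.11, 9.82 and 9.81 in the wild-type eyes and 10.35, 9.93 and 9.98 in the mutant eyes, in the order of the replicates 1 to 3 used throughout. The dimmer one, 1426805_at, read 9.21, 8.37 and 8.67 in wild-type eyes and 7.82, 7.79 and 8.55 in mutant eyes. Brg1 cKO replicates 1 and 2 therefore lay below all wild-type arrays on the dimmer probe set, while Brg1 cKO replicate 3 lay above wild-type replicate 2. Its interval reached from -1.40 to 0.01 (difference -0.70, SE 0.30, unadjusted p = 0.0517), which placed it at rank 1956 of all probe sets by p. For the brighter probe set the interval reached from -0.28 to 0.63 (difference 0.18, SE 0.19, adjusted p = 0.866), and the difference was 0.05 without Brg1 cKO replicate 1. Neither probe set separated the genotypes, and the sources used here do not place them relative to the floxed exons, so that Smarca4 does not check the labels. The extent of the deletion in these eyeballs was not measured here.

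The distance between the Smarca4 probe sets was widest in the same pair of mutant arrays. Brighter minus dimmer was 0.90, 1.45 and 1.14 in wild-type eyes and 2.53, 2.15 and 1.43 in mutant eyes, and of the mutant eyes only replicate 3 fell within the wild-type range. The mean gap was larger by 0.88 in Brg1 cKO, and a two-sided exact permutation of the 6 values gave p = 0.2, where 0.1 is the smallest that 3 arrays against 3 allow. With 1 array left out at a time the increase lay between 0.63 and 1.18. In none of the other 6 member genes with more than 1 probe set did the mean gap move by more than 0.29. That was the value of Smarcd1 with its dim second probe set. Outside the 8 members, probe sets of a single gene also moved apart. Differences of the remodeling ATPase Chd4 were -0.99 (1436343_at), -0.68 (1438476_a_at) and 0.30 (1451295_a_at). Those of the accessory subunit Pbrm1 were -0.55, -0.34 and 0.17. On 1436343_at the mutant eyes read 6.42, 6.98 and 8.50, so that replicates 1 and 2 were again the lowest arrays.

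Measures of RNA integrity and of tissue were read beside this gap. The array carries control probe sets at the 3' and 5' ends of housekeeping transcripts, whose difference widens as RNA degrades or amplification stops early. For actin it was 1.12, 1.01 and 0.93 in wild-type eyes and 1.28, 1.33 and 0.98 in mutant eyes, and for the transferrin receptor 3.14, 2.94 and 2.67 against 4.44, 3.31 and 3.05. Both controls were therefore widest in Brg1 cKO replicates 1 and 2, the arrays in which the Smarca4 gap was widest. The Gapdh control behaved otherwise, at 0.79, 0.87 and 0.75 in wild-type eyes and 0.73, 1.05 and 0.73 in mutant eyes, and so did the pyruvate carboxylase control, at 2.54, 2.32 and 2.78 against 2.22, 1.93 and 2.65. Lens RNA followed another order. The median of 14 measured lens genes (18 listed) lay -2.85, -1.01 and -3.77 from its wild-type mean in the 3 mutant eyes, so that the mutant array with the least lens RNA had the highest value of the dimmer Smarca4 probe set. The summed lens signal was 16.93 to 17.10 in wild-type eyes and 14.47 to 16.25 in mutant eyes on the log2 scale. Epithelium of the ocular surface, in which Le-Cre also acts, was also lower in Brg1 cKO replicates 1 and 2 than in replicate 3. The median of its 13 genes, all measured, lay -1.86, -1.54 and -0.50 from the wild-type mean in the mutant eyes, and its summed signal was 13.86 to 14.11 in wild-type eyes and 13.07 to 13.34 in mutant eyes. The part of RNA integrity or tissue content in the Smarca4 values was not tested.

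**Figure D2:**
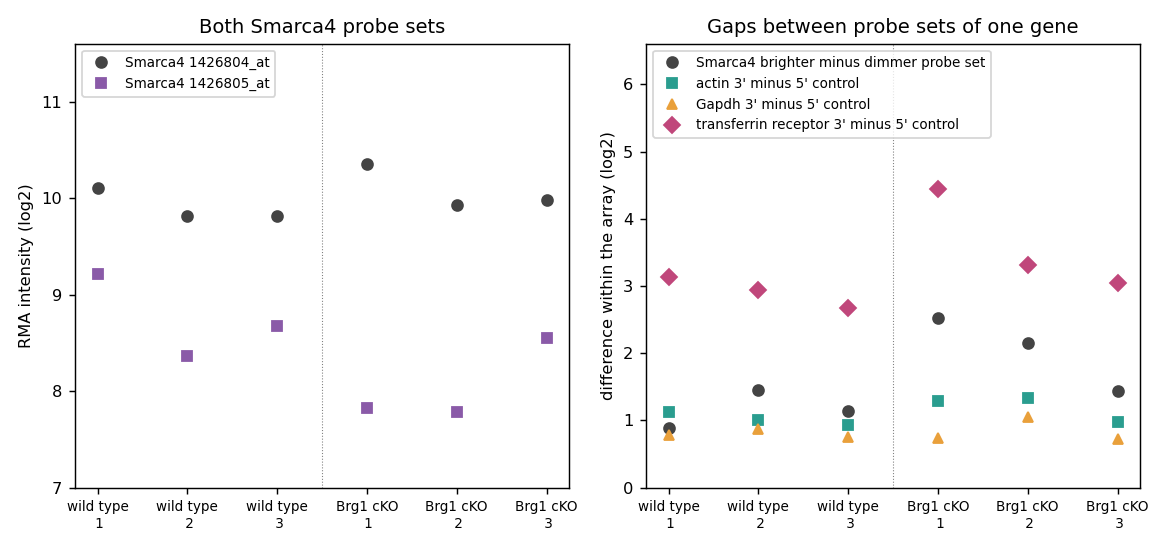
Left, RMA intensity (log2) of both Smarca4 probe sets in each array; right, the log2 distance within each array between the Smarca4 probe sets and between the 3' and 5' control probe sets of 3 housekeeping transcripts, 1 point per array. The Smarca4 distance is 2.53 and 2.15 in Brg1 cKO replicates 1 and 2 and at most 1.45 in the other 4 arrays.

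Genes with the most similar profile over the 6 arrays differed for each Smarca4 probe set. For the dimmer one they were Plxnc1, a plexin receptor (Pearson r = 0.997), Scd2, a stearoyl-CoA desaturase (r = 0.990), and Phip (r = 0.990). Plxnc1 read 7.65, 6.39 and 6.77 in wild-type eyes and 5.57, 5.33 and 6.57 in mutant eyes, thus low in the same pair of mutant arrays. The brighter probe set ran most closely with Zfp292 (r = 0.996), Ftsj3 (r = 0.995) and Ppm1b, a protein phosphatase (r = 0.994). With only 6 arrays such values are common, since 128 probe sets had an r above 0.95 with the dimmer and 97 with the brighter probe set, and all profiles share the RNA quality and tissue content of each array. The probe sets of Smarca4 themselves had an r of -0.22 with each other over the 6 arrays.

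Smarca2 encodes Brm, the ATPase that takes the place of Brg1 in other SWI/SNF complexes, and neither of its probe sets passed the test. The brighter probe set, 1430526_a_at, whose suffix marks probes shared by alternative transcripts of a gene, read 10.09, 9.99 and 10.12 in wild-type eyes and 9.77, 10.54 and 9.75 in mutant eyes. Wild-type arrays agreed closely (SD 0.07), whereas all mutant arrays lay outside the wild-type range, replicate 2 above it and replicates 1 and 3 below it (SD 0.45). The difference of the means was -0.05 (interval -0.62 to 0.53, adjusted p = 0.976), and it changed sign with Brg1 cKO replicate 1 or 3 left out and was -0.305 without Brg1 cKO replicate 2. At the dimmer probe set, 1452333_at, the values were 8.08, 7.67 and 8.35 in wild-type eyes and 7.86, 8.28 and 8.43 in mutant eyes, a difference of 0.16 (interval -0.42 to 0.73). The high value of replicate 2 was thus not shared by the dimmer probe set, on which Brg1 cKO replicate 3 was the highest array.

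Tissue lists in Brg1 cKO replicate 2 were read beside its high Smarca2 value. The median of its 16 skeletal muscle genes, all measured, lay 0.97 above the wild-type mean, while that of Brg1 cKO replicates 1 and 3 lay at -0.54 and 0.51. Ckm, the creatine kinase of muscle, read 7.95, 7.57 and 8.98 in wild-type eyes and 7.17, 8.78 and 8.75 in mutant eyes, so that it was high in wild-type replicate 3 and Brg1 cKO replicate 3 as well, where Smarca2 read 10.12 and 9.75. The summed muscle signal was 15.40 to 16.10 in wild-type eyes and 15.06 to 16.36 in Brg1 cKO on the log2 scale, and that of the macrophage and leukocyte list was 11.77 to 12.06 and 12.86 to 14.05. Of 7 listed blood genes only 3 were measured, and their median lay -0.56, 0.58 and -0.50 from the wild-type mean in the mutant eyes. In the wild-type eyes it lay -0.24, -0.37 and 0.62 from the other wild-type arrays. It was thus high in wild-type replicate 3 as well, where the brighter Smarca2 probe set read 10.12. The summed blood signal was 7.76 to 8.68 in wild-type eyes and 7.23 to 9.12 in mutant eyes. The part of these tissues in the Smarca2 values was not tested. Efna1, an ephrin ligand, had the profile most like the brighter Smarca2 probe set (r = 0.995 over 6 arrays), followed by Iqcc and Sim1, which read at most 3.61 in any array, near the low end of the scale.

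The balance of the ATPases within an array was measured as the log2 ratio of the brighter probe sets, Smarca4 over Smarca2. It was 0.02, -0.17 and -0.31 in wild-type eyes and 0.58, -0.61 and 0.23 in mutant eyes, so that mutant arrays held both the highest and the lowest ratio. The means differed by 0.22 (exact two-sided permutation p = 0.6). Averaged over all probe sets of each gene, the difference had the opposite sign, -0.315 (p = 0.5 by the same exact permutation test). Ratios of different probe sets can be compared between arrays but do not give the ratio of the transcripts.

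Among the core subunits, Smarcb1, which anchors the complex on the nucleosome and is lost in rhabdoid tumours, passed the test on neither probe set. Its probe set 1416045_a_at read 10.92, 11.03 and 10.77 in wild-type eyes and 11.28, 10.76 and 11.05 in mutant eyes. The second, 1435856_x_at, whose suffix marks probes that can match other sequences, lay between 10.54 and 10.86 in wild type and between 10.64 and 10.91 in Brg1 cKO. Their differences were 0.12 (SE 0.20) and 0.05 (SE 0.18), and groups overlapped on both.

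Smarcc1, the scaffold protein BAF155 on which the core assembles, varied more. On 1423416_at it read 10.74, 10.30 and 10.76 in wild-type eyes and 10.26, 9.92 and 10.93 in mutant eyes. On 1423417_at the values were 10.10, 10.20 and 10.87 and then 10.36, 9.72 and 10.67. On both probe sets Brg1 cKO replicate 2 was the lowest of the 6 arrays, and Brg1 cKO replicate 3 lay in the upper part of the wild-type range or above it. Differences were -0.23 (interval -0.91 to 0.45) and -0.14 (interval -0.88 to 0.59), and both depended on single arrays. Leaving out mutant replicate 2 brought the first to -0.005, and leaving out mutant replicate 3 brought it to -0.51. The second became positive, 0.12, without Brg1 cKO replicate 2 and 0.10 without wild-type replicate 3.

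Smarce1, the HMG-box subunit BAF57 that binds DNA, was the brightest member. Its probe set 1422676_at read 12.37, 12.29 and 12.24 in wild-type eyes and 12.45, 12.07 and 12.43 in mutant eyes, with a difference of 0.01 (SE 0.18, adjusted p = 0.992). Its other probe set, 1422675_at, read 10.86, 10.69 and 11.15 and then 10.97, 10.36 and 10.92, with a difference of -0.15 (SE 0.23). Here again Brg1 cKO replicate 2 was the lowest array on both, and without it the differences were 0.14 and 0.05.

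Smarcd1, Smarcd2 and Smarcd3 encode BAF60A, BAF60B and BAF60C, alternative subunits that connect the complex to transcription factors. In mouse, Smarcd3 is known from heart and skeletal muscle formation, and Smarcd2 from the maturation of granulocytes. Smarcd1, the broadly expressed paralog, was read by 1448913_at at 8.79, 8.74 and 8.47 in wild-type eyes and 8.73, 7.93 and 8.66 in mutant eyes. Its difference of -0.23 (interval -0.82 to 0.37) rested on Brg1 cKO replicate 2, and without that array it was 0.03. The other Smarcd1 probe set, 1420240_at, lay between 2.22 and 2.5 in all 6 arrays, below the 25th percentile of all values (4.84), where no fall could show.

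All 3 probe sets of Smarcd2 moved in parallel over the arrays, with an r of 0.955 and 0.823 between the brightest and the others. On the brightest, 1448400_a_at, values were 12.32, 11.66 and 11.85 in wild-type eyes and 11.68, 11.95 and 11.83 in mutant eyes. Wild-type replicate 1 was highest on this probe set and on 1426192_at, with 11.74 against at most 11.36 elsewhere. Differences were -0.13, -0.06 and -0.06 and each turned positive without wild-type replicate 1, to 0.06, 0.14 and 0.007. The dimmest, 1448401_at, also turned positive without Brg1 cKO replicate 1 (0.03). Mutant values lay within the wild-type range on the brightest probe set. Ptprc, the pan-leukocyte antigen, read 4.55, 4.23 and 5.16 in wild-type eyes and 6.16, 7.88 and 7.16 in mutant eyes. The part of leukocytes in the Smarcd2 values was not tested.

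Smarcd3 was the only member whose groups did not overlap. Its probe set 1418467_at read 9.18, 9.04 and 9.03 in wild-type eyes and 9.31, 9.36 and 9.19 in mutant eyes, and the lowest mutant value exceeded the highest wild-type value by 0.007. Such separation held for 1 of 16 member probe sets and for 13.7% of all tested probe sets, 7.31% with Brg1 cKO higher and 6.44% with Brg1 cKO lower. The mean difference was 0.20 (SE 0.16, interval -0.17 to 0.57), with an adjusted p of 0.812. It lay between 0.17 and 0.25 with 1 array left out. The median of the skeletal muscle list lay -0.54, 0.97 and 0.51 from the wild-type mean in the mutant eyes. In wild-type eyes it lay -0.365, -0.463 and 0.838 from the other wild-type arrays. The part of muscle in the Smarcd3 values was not tested. Sec22b, a vesicle transport protein, had the most similar profile (r = 0.994 over 6 arrays), with 11.50, 11.24 and 11.12 in wild-type eyes and 11.85, 11.92 and 11.56 in mutant eyes, ahead of Ttl, the tubulin tyrosine ligase (r = 0.993), and AU040320 (r = 0.992).

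Within arrays, Smarcd1 minus Smarcd3 was -0.39, -0.30 and -0.56 in wild-type eyes and -0.58, -1.42 and -0.52 in mutant eyes. The mean shift of -0.43 (exact two-sided permutation p = 0.2) came mostly from Brg1 cKO replicate 2, and it was -0.14 without it. Over all probe sets of each gene, the dim one of Smarcd1 included, the shift was -0.281 (exact permutation p = 0.1, the smallest possible here). For Smarcd1 minus Smarcd2 the means were -3.28 in wild-type eyes and -3.38 in mutant eyes, a difference of -0.10 (p = 0.8 by the same exact permutation test) whose sign changed with single arrays.

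**Figure D3:**
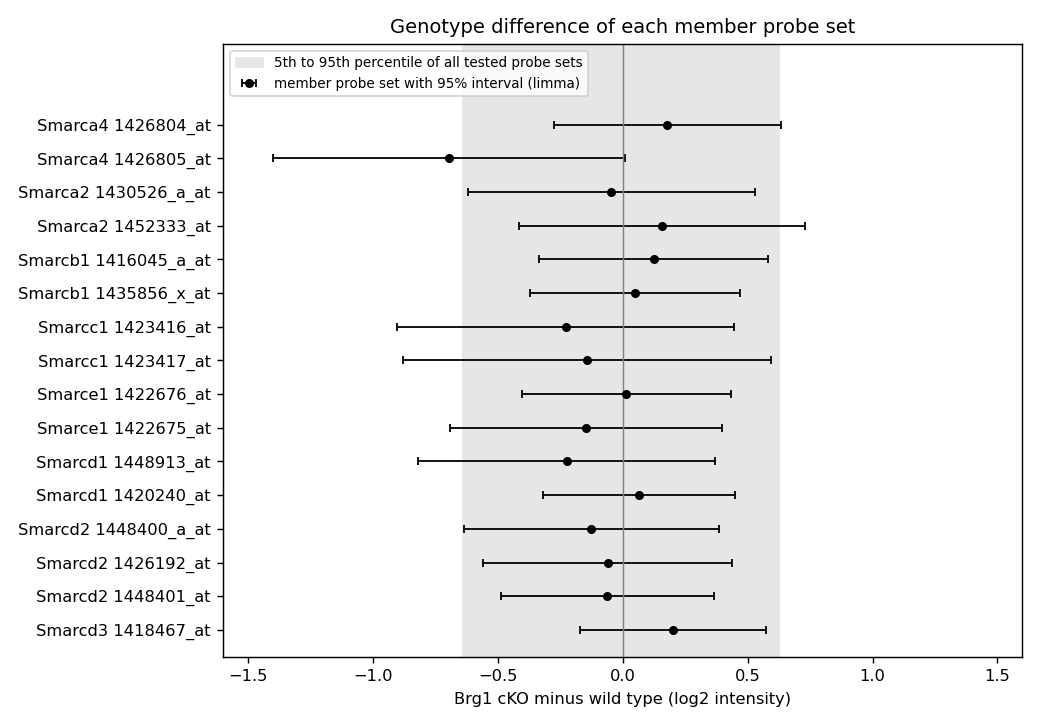
Difference between Brg1 cKO and wild type (log2 intensity, horizontal axis) of each member probe set, with dots for the limma estimate, bars for its 95% confidence interval and a grey band from the 5th to the 95th percentile of the differences of all tested probe sets (-0.64 to 0.63). Only the dimmer Smarca4 probe set, at -0.70, lies outside the band, and every interval includes 0.

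The spread among mutant arrays had a common feature. Brg1 cKO replicate 2 was the lowest of the 6 arrays for 7 of 16 member probe sets, among them both of Smarcc1, both of Smarce1 and the brighter one of Smarcd1, while it was highest for 4. Over all probe sets it was the lowest array for 28% and the highest for 21.7%. The SD was larger in Brg1 cKO than in wild type for 11 of 16 member probe sets and for 65.3% of all. In the same array the median of 17 measured genes of dividing cells (18 listed) lay -0.29 and that of 16 retina neuron genes (18 listed) -0.33 from the wild-type mean, while Mki67, the proliferation antigen, read 11.61 in it and 11.62 to 11.85 in the other 5 arrays. The summed signal of dividing cell genes was 15.00 to 15.26 in wild-type eyes and 14.94 to 15.19 in mutant eyes, and that of retina neuron genes was 15.07 to 15.27 and 14.84 to 15.51. Their part in the member values was not tested.

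**Figure D4:**
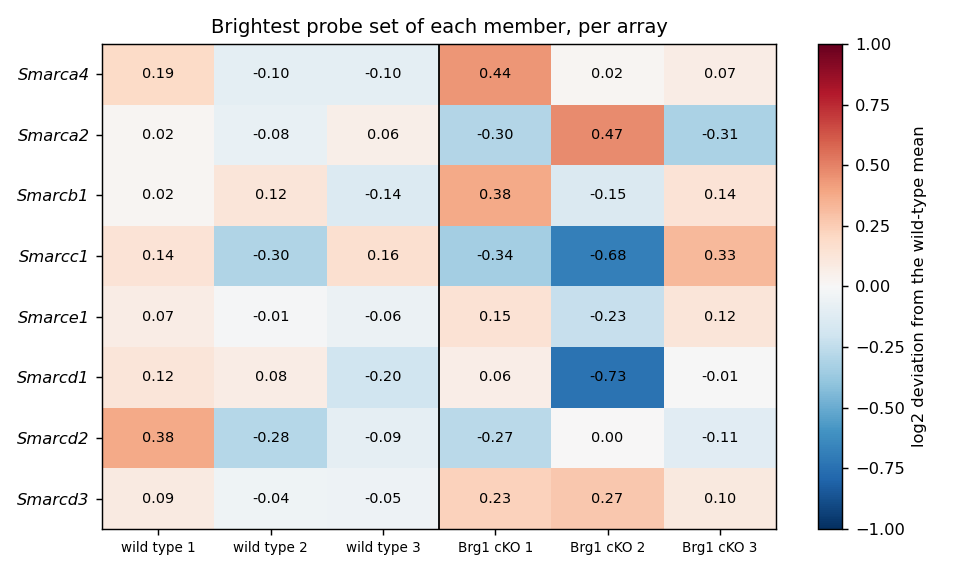
Deviation from the wild-type mean (log2, colour and printed value) of the brightest probe set of each member, with 1 column per array. In Brg1 cKO replicate 2, Smarcc1 and Smarcd1 are the lowest cells and Smarca2 the highest.

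In wild type, the brightest probe sets were ordered Smarce1, Smarcd2, Smarcb1, Smarcc1, Smarca2, Smarca4, Smarcd3 and Smarcd1. Their means were 12.30, 11.94, 10.91, 10.60, 10.07, 9.91, 9.09 and 8.67 on the log2 intensity scale, which placed Smarce1 at the 96.9th, Smarca2 at the 80.7th, Smarca4 at the 78.9th and Smarcd1 at the 64.2nd percentile of all tested probe sets. All 8 genes thus had a probe set well above the low end of the scale in newborn eyes. Ranges of neighbours overlapped between Smarce1 and Smarcd2 and between Smarca2 and Smarca4, and the other neighbours did not overlap over the 3 wild-type arrays. In Brg1 cKO the order of the means was the same but for Smarca4 (10.09) and Smarca2 (10.02), which changed places. The order is one of probe set signals, which depend on the probes as well as on the RNA, and not of transcript abundance. Probe sets of a single gene differed by up to 6.34 in wild type (Smarcd1), and with the mean over all probe sets of each gene 5 of the 8 genes took another place.

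Other SWI/SNF subunits and other remodeling ATPases, read for comparison, also gave no probe set past the threshold. Of 14 measured accessory subunits with 21 probe sets, 0 passed and 0 had an unadjusted p under 0.05, and their median difference was -0.12. The smallest p in this list belonged to Dpf1 (0.37 on 1420529_at, a dim probe set), to the Pbrm1 probe sets 1427266_at (-0.55) and 1426877_a_at (-0.34) and to Arid1a (-0.24 on 1448709_at), with adjusted p from 0.801 to 0.822. Other probe sets of these genes gave -0.35 (Dpf1, 1420530_at), 0.17 (Pbrm1, 1426878_at) and -0.34 (Arid1a, 1417440_at), so that Dpf1 and Pbrm1 had differences of both signs. Pbrm1, the polybromo subunit of PBAF complexes, read 9.56, 8.67 and 9.43 on 1427266_at in wild-type eyes and 7.96, 8.49 and 9.55 in mutant eyes, so that Brg1 cKO replicate 3 again lay among the wild-type arrays.

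Of 14 measured ATPases of the ISWI, CHD, INO80 and related families with 26 probe sets, 0 passed either and 2 of 26 had an unadjusted p under 0.05, beside 8.4% of all probe sets, both lower in Brg1 cKO. The median difference of the list was -0.26. These were Atrx on 1420945_at (-0.71, adjusted p = 0.439) and Ino80 on 1418125_at (-0.56, adjusted p = 0.536). Atrx, a remodeler of heterochromatin, read 5.90, 5.75 and 6.05 in wild-type eyes and 4.91, 5.05 and 5.63 in mutant eyes on that probe set, and 8.78, 7.80 and 8.56 against 7.17, 7.06 and 8.51 on 1420946_at (-0.81). As on the dimmer Smarca4 probe set, Brg1 cKO replicates 1 and 2 were the lowest arrays and replicate 3 was close to wild type. Chd1 was next by p, at 0.39 on 1420990_at. Whether the lists differ from the 8 members was not tested.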

How the data were processed

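Total RNA of 50 ng per eyeball was amplified with the NuGEN Ovation system, labelled with biotin and hybridised to 1 Affymetrix array per sample. The authors normalised the arrays with RMA (robust multichip average), and the deposited values are linear intensities per probe set, which were converted to log2 here. The sources used here do not name the software that ran RMA. Of 22690 rows, 64 array controls were left out. Probe sets were named from the platform annotation, which gives 1 gene to 20380 of them. Genotype was fitted with limma 3.58.1 in R 4.3.3 (lmFit, eBayes, two-sided), after a check on simulated data. Exact permutation tests were used for within-array quantities. Alternatives were each array left out, a replicate block, quantile or median scaling, a filter, an offset of 32, trend with robust moderation, array weights and template matching. Named genes are all members, the 4 probe sets of smallest p of the accessory and ATPase lists, and the 3 genes of highest Pearson r with each Smarca4 probe set and with the brightest Smarca2 and Smarcd3 probe sets. The defining cell type genes Cryaa, Krt12, Ckm, Ptprc, Mki67 and Rcvrn are named as well. Chd4 is named for the differences between its probe sets and was chosen after its values were seen. Lens, ocular surface, skeletal muscle, blood, macrophage and leukocyte, dividing cell and retina neuron lists give the median shift of the brightest probe set per gene from the wild-type mean (for a wild-type array, from the other wild-type arrays). Members and lists were chosen with earlier results of these data known. The number of arrays limits the precision.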

Additional observations from a re-analysis of the deposited data

How the results depend on the processing

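No member probe set passed an adjusted p of 0.05 under any alternative run. Of 207 member values under alternatives, 189 kept direction and side of the threshold and 18 changed sign, in 11 probe sets whose difference was at most 0.225 in size. The smallest adjusted p was 0.286, for the dimmer Smarca4 probe set without Brg1 cKO replicate 3 (-0.95). At an unadjusted limma p under 0.05 the member count was 0 to 1 with an array left out. It was 1 with quantile normalisation and 1 with each array centred on its median. Each time this was the dimmer Smarca4 probe set (-0.47 to -0.95 with an array left out).

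Over all probe sets the count past the threshold, 115, was 24 to 216 with an array left out, 45 with the replicate block, 16 with the offset of 32 and 190 with array weights. Template matching, at an unadjusted p and a fold threshold, selected 820. The replicate block called 0 members. Same-numbered arrays deviated together with correlations of 0.06, 0.08 and 0.13, and no array matched best with its own number, so the numbers were not taken as pairs.

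With an array left out, differences that changed sign ranged from -0.305 to 0.087 (1430526_a_at) and -0.024 to 0.321 (1452333_at) for Smarca2, -0.003 to 0.26 (1416045_a_at) and -0.054 to 0.122 (1435856_x_at) for Smarcb1, -0.36 to 0.12 for Smarcc1 (1423417_at), -0.053 to 0.136 (1422676_at) and -0.256 to 0.047 (1422675_at) for Smarce1, -0.37 to 0.029 for Smarcd1 (1448913_at), and -0.268 to 0.062 (1448400_a_at), -0.17 to 0.14 (1426192_at) and -0.168 to 0.027 (1448401_at) for Smarcd2. Without a change of sign, the range was 0.046 to 0.274 for Smarca4 (1426804_at) and -0.509 to -0.005 for Smarcc1 (1423416_at). Centring gave -0.032 for Smarce1 1422676_at. The Smarca4 to Smarca2 ratio ranged from -0.032 to 0.561 and was -0.315 over all probe sets, and Smarcd1 minus Smarcd2 ranged from -0.32 to 0.22 and was 0.003. Of 8 genes, 5 changed place in the wild-type order with the mean over all probe sets. The cause of these changes was not tested.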
